A study of Rattus norvegicus with 2 samples.

Results

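Chromatin regulators that write, read or act on histone acetylation were followed in the rat esophagus after dosing with an inhibitor of histone deacetylases (HDACs). The list holds 43 genes for acetyltransferases, corepressors, bromodomain proteins, nucleosome remodellers, Polycomb proteins and DNA methyltransferases, chosen by name. A member counted as measured when a probe set was annotated to that gene alone, and the brightest such probe set, by the mean of both arrays, stood for the gene. By this rule 40 of the 43 were measured, among 14213 genes in all. Kat8, Sap18 and Rbbp4 were not measured, because no probe set was annotated to Kat8 and those for Sap18 and Rbbp4 were shared with other genes.

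RNA came from the esophagus of male Sprague-Dawley rats bought at 5 to 6 weeks of age. One group received 7 doses of the HDAC inhibitor OSU-HDAC42 by gavage, each of 50 mg/kg and 350 mg/kg in all, and the other received vehicle by the same route. On day 15, 24 hours past the final dose, tissue was harvested and hybridised to Affymetrix 230 2.0 rat arrays. Each group had 1 array, and the labels do not say whether it held RNA of 1 rat or of several. Without replicates no difference below has a p-value, a standard error or a check against the spread between rats.

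Acetyltransferases place acetyl groups on histone lysines, bromodomains bind these marks, and HDACs remove them. Most class I HDACs work inside corepressor complexes. Sin3 and CoREST bring HDAC1 and HDAC2 to promoters, NCoR brings HDAC3, and NuRD joins HDAC1 and HDAC2 to a remodelling ATPase of the CHD family. SWI/SNF remodellers slide or evict nucleosomes, and Polycomb repressive complex 2 methylates histone H3 at silenced genes. In a stratified epithelium such as that of the esophagus, this machinery is known for its part in the balance between dividing basal cells and differentiating upper layers.

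The deposited values are linear probe set intensities. A difference is the log2 value with OSU-HDAC42 minus the log2 value with vehicle, taken after intensities under 16 were raised to 16. Where a pair of values is given, the first is with OSU-HDAC42 and the second with vehicle unless named. The expression floor was an intensity of 49.1, the median over probe sets of the log2 mean of both arrays, and 9560 genes reached it on at least 1 array. Their differences were centred near 0 (median -0.027) with an SD of 0.48. Within a gene, probe sets differed from each other by 0.41 on the log2 scale (root mean square over 3645 pairs in all genes). This is the only measure of error in these data and covers differences between probe sets alone, whatever their source. Median intensities were 48.4 and 49.1 on the OSU-HDAC42 and vehicle arrays. The ratio of 3′ to 5′ control probe sets, a reading of RNA integrity, was 6.29 and 7.76 for actin. For GAPDH it was 2.09 and 2.32. Its bearing on single genes was not tested. The tissue label fitted its markers, since the squamous keratins Krt13 and Krt4 and the basal keratin Krt5 stood at 14438, 11052 and 6116 on the OSU-HDAC42 array and at 14947, 11517 and 6449 on the vehicle array.

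The members as a group did not stand higher or lower in the OSU-HDAC42 sample. Of the 40 measured, 35 were above the floor, 18 of them higher and 17 lower, with a median difference of 0.0034. Only 2 members, Rcor1 and Chd4, were at least 1.5-fold higher, compared with 7.59% of all genes past the floor. At least 1.5-fold lower were 4 members, Chd3, Mbd3, Kat2a and Smarcb1, where 10.9% of all genes were. No member was 2-fold higher, against 1.88% of all genes, and 1 member, Chd3, was 2-fold lower, against 3.18%. These shares are near the background, so the description that follows is of single genes and complexes. Of members close to the 1.5-fold limit, Smarcb1 at -0.63 and Chd4 at 0.63 lay inside it and Ncoa3 at 0.57 outside. Kat2a, at 49.2 on the vehicle array, was just above the floor and Brd3, at 47.9 on the OSU-HDAC42 array, just below.

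**Figure D1:**
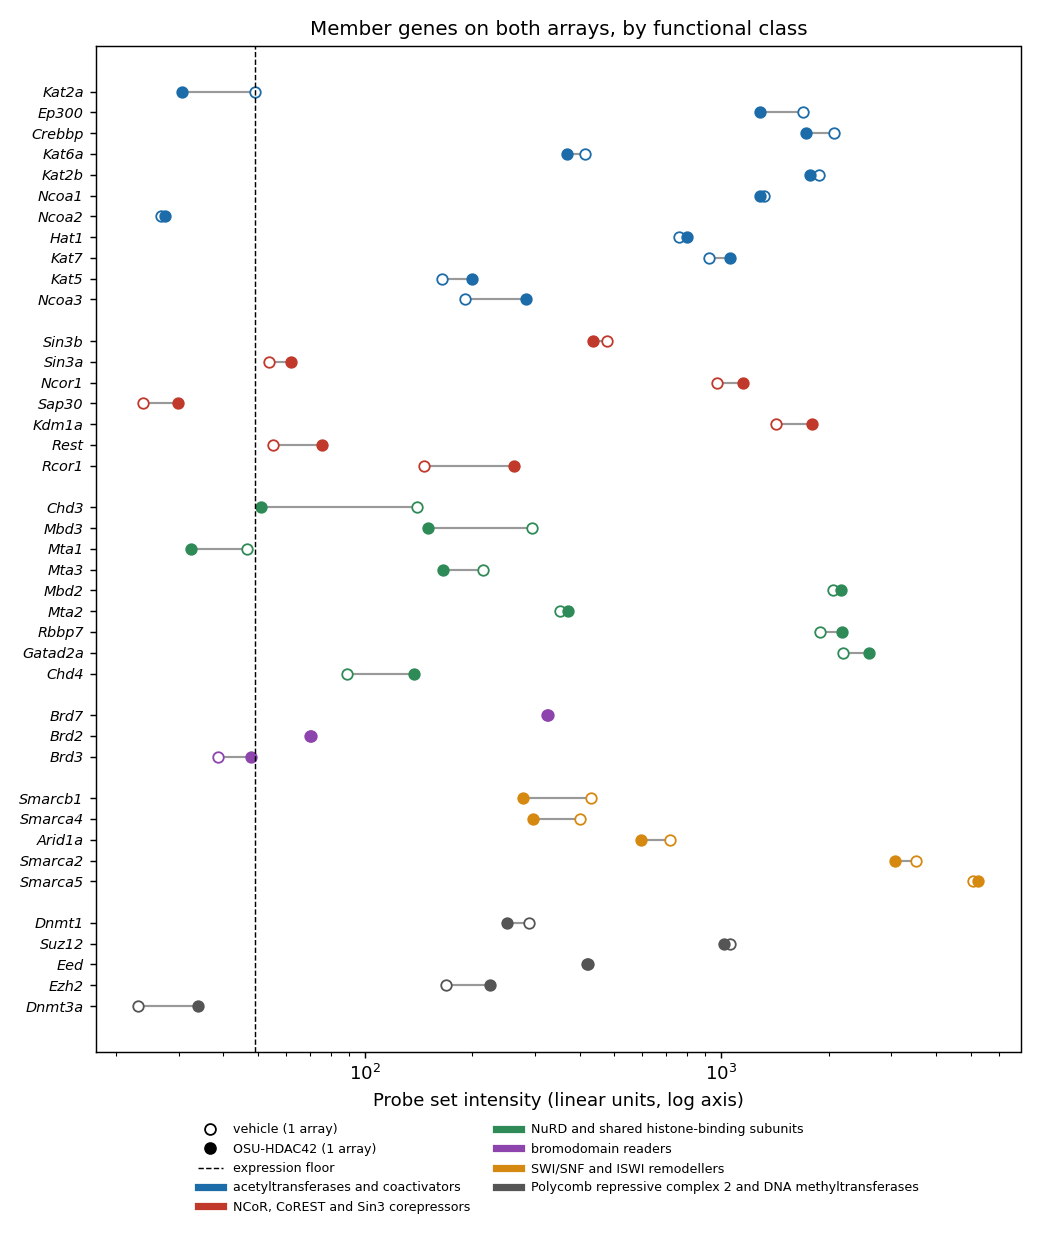
Intensity of each member's brightest probe set (log axis) on the vehicle array (open circles) and the OSU-HDAC42 array (filled circles), by functional class, with the expression floor as a dashed line. The longest gap is that of Chd3, from 139.6 on the vehicle array to 51.2 on the OSU-HDAC42 array, and most members lie close together.

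The NuRD subunits held both the lowest member and one of the highest. Chd3, one of the alternative ATPases of NuRD, stood at 51.2 with OSU-HDAC42 and 139.6 with vehicle. This was a difference of -1.45 (2.73-fold lower), lower than for all but 0.94% of genes past the floor. Chd4, its close relative and the other main ATPase of NuRD, stood at 137 and 88.8, a difference of 0.63 (1.55-fold higher). The pair thus went opposite ways, and Chd3 was 4.22-fold lower relative to Chd4, with log2 values of this ratio change from -2.08 to -2.00 over the alternative settings. All 3 probe sets of Chd4 were above the floor and higher, at 0.63, 0.64 and 0.39. Chd3 was read by 1 probe set only, so its value has no second reading, and probe set choice could move only the Chd4 side of the ratio.

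The methyl-CpG-binding-domain proteins, which define separate forms of NuRD, also differed from each other. Mbd3, which in mammals lacks selective binding to methylated DNA, stood at 150 with OSU-HDAC42 and 294 with vehicle (-0.97, 1.95-fold lower). Mbd2, which binds methylated CpG, stood at 2166 and 2061 (0.071). Relative to Mbd2, Mbd3 was 2.05-fold lower. Both rest on 1 probe set each.

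Metastasis-associated proteins, the scaffold on which NuRD holds its HDACs, showed smaller gaps. Mta3 stood at 166 and 215 (-0.37), and its other probe sets, both below the floor, differed by 0.18 and 0.00. Mta2 stood at 371 with OSU-HDAC42 and 351 with vehicle (0.077). Mta1 was below the floor on both arrays, at 32.4 and 46.5 (-0.52), and its other probe set went the other way (0.20). The remaining NuRD members were slightly higher. Gatad2a, a subunit that links MBD proteins to the CHD ATPase, stood at 2588 and 2191 (0.24), with 0.30 on its other probe set. Rbbp7, a histone chaperone shared by NuRD, Sin3 and Polycomb complexes, stood at 2178 and 1886 (0.21). In all, NuRD had 8 members above the floor, of which 5 were higher and 3 lower, with a median of 0.074.

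Genes of similar intensity give the scale for these differences. Among the 500 genes nearest to Chd3 in mean log2 intensity, members left out, the differences had an SD of 0.60, and 2.0% were at least as far from 0 as that of Chd3. For Mbd3 the SD was 0.53 and the share 8.8%, for Rcor1 0.54 and 13.6%, and for Chd4 0.56 and 22%. Chd3 is therefore the member that stood farthest out for its intensity, while differences as large as that of Chd4 were common.

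**Figure D2:**
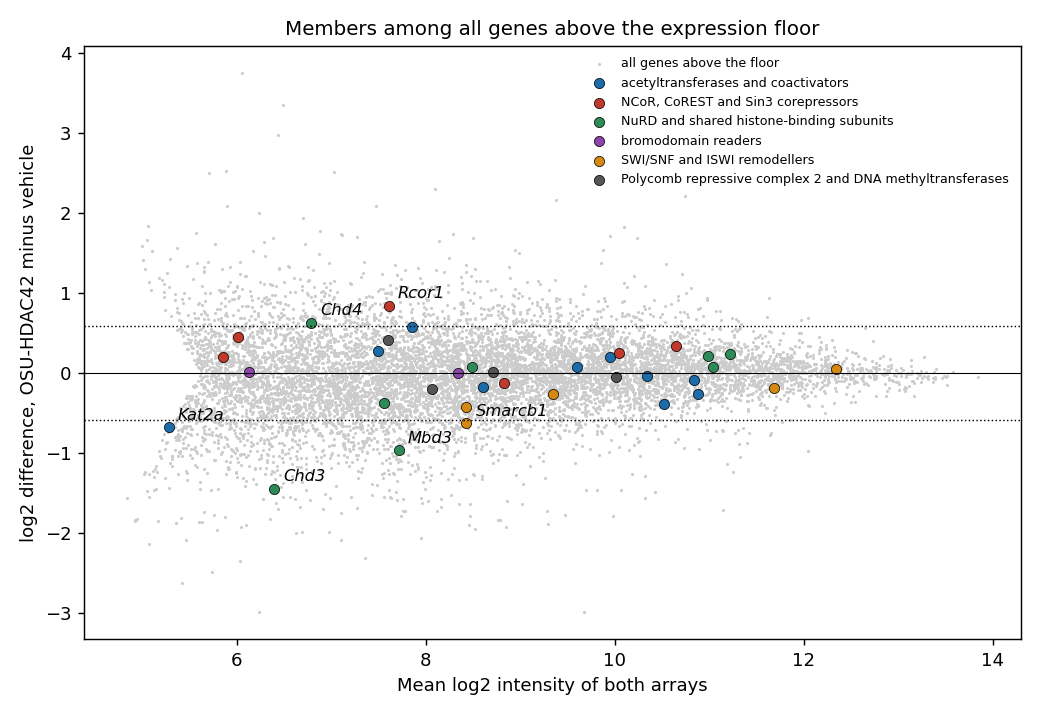
Log2 difference (OSU-HDAC42 minus vehicle) against mean log2 intensity for all genes above the floor (grey) and for the 35 members above it (coloured by class), with dotted lines at 1.5-fold. Labelled members passed 1.5-fold, and Chd3 at -1.45 lies lowest of them.

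Promoter sequence is shown for the NuRD genes Chd3, Mbd3 and Chd4 and for the corepressor gene Rcor1, which were the 2 lowest and 2 highest of the members that were above the floor and had a promoter in the table used. The windows are from RefSeq on the GRCr8 rat assembly and run from 250 bases before to 50 after the gene's start, 5′ to 3′ along the gene, and the array's probes were not tied to that assembly. Capitals mark the GC box, GGGCGG on either strand. The windows lie at chr10:54588761-54589060 on the minus strand (Chd3), chr7:9963390-9963689 on the plus strand (Mbd3), chr4:159584568-159584867 on the plus strand (Chd4) and chr6:135890601-135890900 on the plus strand (Rcor1).
Chd3: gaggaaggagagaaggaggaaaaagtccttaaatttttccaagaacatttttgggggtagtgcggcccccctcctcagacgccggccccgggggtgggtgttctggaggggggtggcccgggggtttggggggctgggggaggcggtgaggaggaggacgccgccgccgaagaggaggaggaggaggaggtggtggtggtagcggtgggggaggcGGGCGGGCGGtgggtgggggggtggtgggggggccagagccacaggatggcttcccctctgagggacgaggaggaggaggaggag
Mbd3: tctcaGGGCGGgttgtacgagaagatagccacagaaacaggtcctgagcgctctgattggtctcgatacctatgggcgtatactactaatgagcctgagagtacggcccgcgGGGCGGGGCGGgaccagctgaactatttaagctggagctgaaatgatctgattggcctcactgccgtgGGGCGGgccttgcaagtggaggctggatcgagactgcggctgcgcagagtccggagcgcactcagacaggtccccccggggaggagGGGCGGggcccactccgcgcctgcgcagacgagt
Chd4: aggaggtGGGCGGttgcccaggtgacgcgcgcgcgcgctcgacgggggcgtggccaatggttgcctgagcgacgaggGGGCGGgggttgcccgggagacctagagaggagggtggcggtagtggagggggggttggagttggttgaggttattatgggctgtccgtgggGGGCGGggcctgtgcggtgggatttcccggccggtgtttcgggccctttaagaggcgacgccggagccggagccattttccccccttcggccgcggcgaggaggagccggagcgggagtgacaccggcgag
Rcor1: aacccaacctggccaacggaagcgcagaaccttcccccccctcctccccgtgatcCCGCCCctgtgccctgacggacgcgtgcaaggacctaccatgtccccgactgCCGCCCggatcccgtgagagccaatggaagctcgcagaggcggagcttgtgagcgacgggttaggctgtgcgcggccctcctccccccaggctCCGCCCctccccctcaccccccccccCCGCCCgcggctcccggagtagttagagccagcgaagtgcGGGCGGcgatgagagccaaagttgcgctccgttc

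These windows held 15 CpG dinucleotides for Chd3, 23 for Mbd3, 33 for Chd4 and 28 for Rcor1. GC boxes numbered 2, 5, 3 and 5, with overlapping matches counted separately. Of the 40 measured members, 34 matched a gene symbol with a single window. In these the GC box was present in 88.2%, against 64.8% of the windows of 7529 array genes above the floor and 35.9% of all 24206 windows. The CCAAT box (CCAAT on either strand) was in 47.1% of member windows, 38.6% of those of array genes above the floor and 37.8% of all. The E-box CACGTG was in 5.88%, 10.1% and 6.74%. The median number of CpG was 28 in member windows and 22 in those of array genes above the floor. Members that were higher and members that were lower both carried the GC box, as the sequences above show, and a match is a description and not a bound site.

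Corepressor genes were mostly a little higher in the OSU-HDAC42 sample. Of the 6 above the floor in the NCoR, CoREST and Sin3 class, 5 were higher and 1 lower, with a median of 0.29. Rcor1, the scaffold of the CoREST complex, stood at 262 with OSU-HDAC42 and 146 with vehicle (0.84, 1.79-fold higher). Its other probe set stood at 72.8 and 54.6 (0.42). Kdm1a, the histone demethylase that CoREST carries, stood at 1801 and 1427 (0.34), on 1 probe set. Rest, the zinc-finger repressor of neuronal genes that recruits CoREST and Sin3, stood at 75.5 and 55.2 (0.45), with its other probe set under 16 on both arrays. All 3 of these members were thus higher, Rcor1 and Rest by more than the 0.41 spread between probe sets and Kdm1a by less. Differences at least as large were common at similar intensity. They were found in 40.4% of the 500 nearest genes for Rest and in 23.8% for Kdm1a. Other CoREST genes, given below, did not all go this way.

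Ncor1, the scaffold that activates HDAC3, stood at 1152 and 974 (0.24), and its other probe sets, both above the floor, differed by 0.10 and 0.53. Sin3a, the main scaffold of the Sin3 complex, stood at 61.9 and 53.9 (0.20), with 0.57 and 0.36 on 2 probe sets below the floor. Sin3b, its relative, stood at 436 with OSU-HDAC42 and 476 with vehicle (-0.13), and 0.081 on its other probe set. Sap30, a Sin3-associated protein, was below the floor at 29.8 and 23.9. On the brightest probe sets, none of these differences exceeded the 0.41 spread between probe sets. The enzymes that these complexes carry, Hdac1, Hdac2 and Hdac3, named here for that role, differed by 0.27, -0.14 and 0.34. The other probe set of Hdac1 stood at 404 and 168 (1.26), a larger difference than on the brightest.

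Acetyltransferases and their coactivators went in both directions, with 4 of 10 above the floor higher, 6 lower and a median of -0.063. Over all 11 measured the median was -0.039, and 0.077 when the probe sets above the floor were averaged. Kat2a (GCN5), the acetyltransferase of the SAGA complex, stood at 30.7 with OSU-HDAC42 and 49.2 with vehicle (-0.68, 1.60-fold lower), on 1 dim probe set. Kat2b (PCAF), its relative, stood at 1772 and 1881 (-0.086). The general coactivators were both lower. Ep300 stood at 1287 and 1691 (-0.39) and Crebbp at 1722 and 2066 (-0.26). Crebbp had 4 probe sets above the floor and all were lower, the other 3 at -0.29, -0.39 and -0.74, whereas the second probe set of Ep300 was below the floor.

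The MYST-family enzymes among the members differed little on their brightest probe sets. Kat6b, a MYST enzyme outside the member list and named after its value was seen, stood at 111 and 160 (-0.52, 1.43-fold lower). Kat5 (TIP60) stood at 199 with OSU-HDAC42 and 165 with vehicle (0.27). Kat7 (HBO1), which acetylates histones at replication origins, stood at 1056 and 922 (0.20). Kat6a (MOZ) stood at 368 and 415 (-0.17), and a dimmer probe set of it, at 149 and 105, went the other way (0.51). Hat1, which acetylates newly made histone H4, stood at 800 and 759 (0.077). Among the nuclear receptor coactivators, Ncoa3 stood at 283 and 191 (0.57, 1.48-fold higher), just short of 1.5-fold, and its other probe set was below the floor and equal on both arrays. Ncoa1 stood at 1281 and 1316 (-0.039), with 0.44 on its other probe set above the floor. Ncoa2 was below the floor at 27.5 and 26.7.

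On their brightest probe sets all 4 SWI/SNF members were lower in the OSU-HDAC42 sample, and only Smarcb1 passed 1.5-fold. Of all 9560 genes above the floor, 5045 were lower. With the ISWI gene Smarca5, 4 of the 5 genes of this class were lower, with a median of -0.27, which became 0.084 when the median over each gene's probe sets was used. Smarcb1 (SNF5), a core subunit that contacts the nucleosome, stood at 277 with OSU-HDAC42 and 430 with vehicle (-0.63, 1.55-fold lower), on 1 probe set. Smarca4 (BRG1), an ATPase of the complex, stood at 297 and 400 (-0.43), and its other probe sets were lower too, at -0.51 above the floor and -0.11 below it. Smarca2 (BRM), the alternative ATPase, stood at 3071 and 3513 (-0.19), but its other probe sets, both above the floor, differed by 0.10 and 0.25. Arid1a, the DNA-binding subunit of the BAF form, stood at 594 and 717 (-0.27) on its brightest probe set and at 257 and 253 (0.019) on the next. Smarca5 (SNF2H), the ATPase of the separate ISWI family, stood at 5265 and 5087 (0.050), and all 3 of its probe sets were slightly higher. For Smarca4 the probe sets went one way, and for Smarca2 and Arid1a they did not. Among the 500 genes nearest in intensity, differences at least as large were found in 14.8% for Smarcb1 and 30.6% for Smarca4. The shares were 39.8% for Arid1a and 30.4% for Smarca2, whose differences were also within the 0.41 spread between probe sets.

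Bromodomain readers were nearly equal on the arrays. Brd2, a BET protein that binds acetylated histone H4, stood at 70.6 and 70.0 (0.013), and Brd7, a bromodomain subunit of the PBAF form of SWI/SNF, stood at 325 and 326 (-0.0040). Brd3, another BET protein, was below the floor at 47.9 and 38.7. Polycomb and DNA methylation genes also showed small gaps, with none past 1.5-fold. Ezh2, the methyltransferase of Polycomb repressive complex 2, stood at 224 with OSU-HDAC42 and 169 with vehicle (0.41). Its other probe sets above the floor went opposite ways, at 0.79 and -0.29. Its partners Suz12 and Eed stood at 1017 against 1056 (-0.054) and 421 against 420 (0.0034). Dnmt1, the maintenance DNA methyltransferase, stood at 250 and 289 (-0.21), and the de novo enzyme Dnmt3a was below the floor at 34.1 and 23.1, with its probe sets at 0.56 and -0.21.

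**Figure D3:**
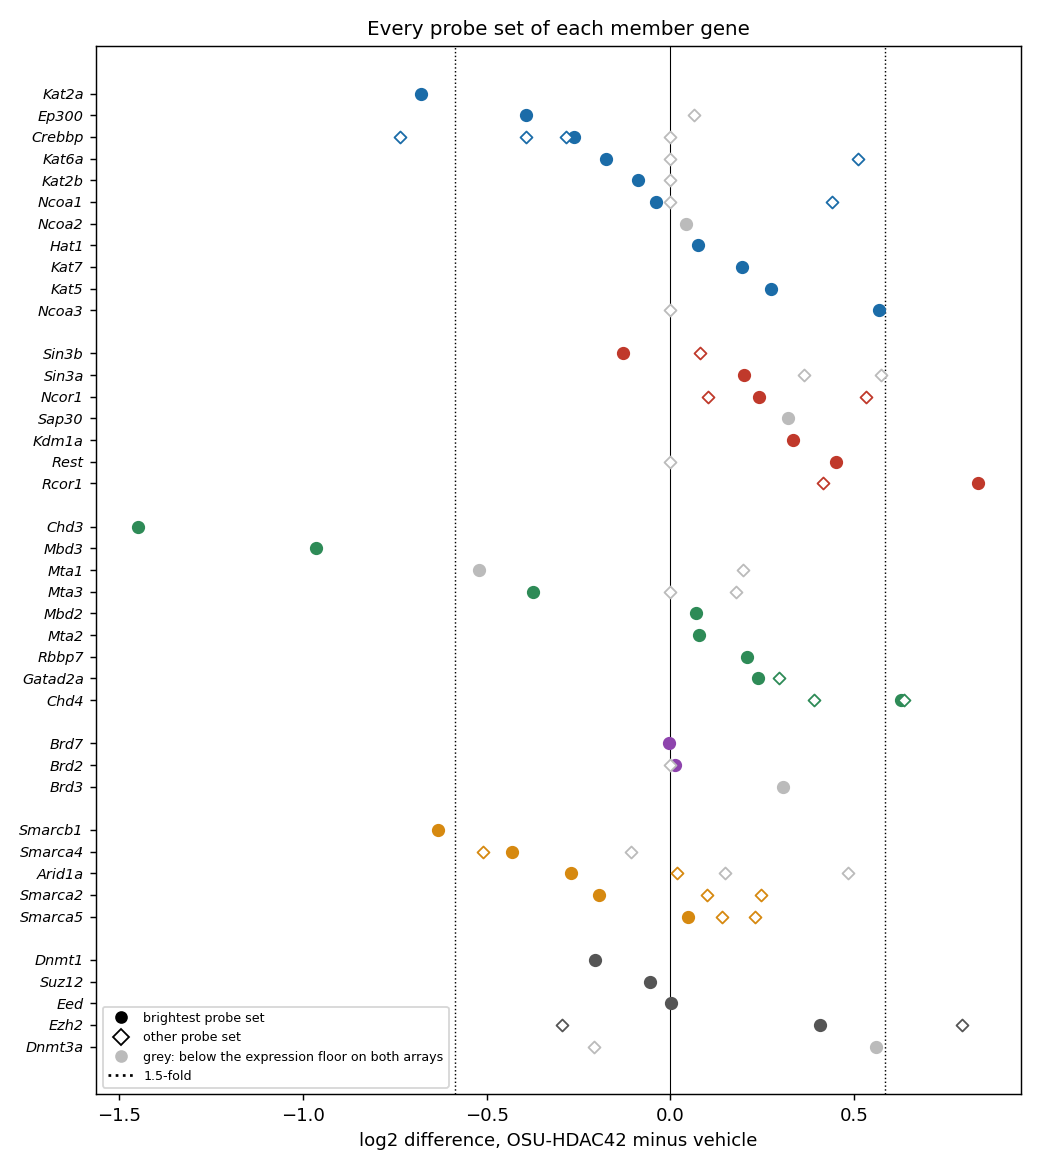
Log2 difference (OSU-HDAC42 minus vehicle) of all 77 probe sets of the 40 measured members, with the brightest probe set of each gene as a filled circle, others as open diamonds and those below the floor in grey. Chd4, Rcor1, Crebbp and Smarca4 have probe sets on one side of 0 above the floor, and Ezh2, Kat6a, Smarca2 and Arid1a on both sides.

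How far probe sets of one gene bore each other out could be read for 13 members with at least 2 probe sets above the floor. Their probe sets differed from each other by 0.39 on the log2 scale (root mean square over 28 pairs), close to the 0.41 of all genes. Among 20 further probe sets past the floor, the direction matched the brightest in 13 (65.0%), against 69.6% over all genes. The 4 lower members past 1.5-fold all rest on 1 probe set each, whereas both higher ones have further probe sets that were higher too. Over all settings tried, Chd3 ranged from -1.45 to -1.41, Mbd3 from -0.97 to -0.94, Rcor1 from 0.63 to 0.86 and Chd4 from 0.55 to 0.67. With 1 bright enough probe set each, Chd3 and Mbd3 could be moved by scaling alone, not by probe set choice or raised values. Their narrow ranges are thus no sign that their values are firmer than those of Rcor1 and Chd4.

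Other chromatin genes, from the same complexes or only from related families, were taken from a list of 151 sorted into the same classes. The class figures are thus not for subunits of the complexes alone. Of the list, 131 genes were measured and 113 were above the floor. Of these, 55 were higher (48.7%, against 46.7% of all genes above the floor) and 57 lower, with a median of -0.012. Past 1.5-fold were 8 higher and 7 lower genes, together 13.3% against 18.5% of all genes above the floor. The acetyltransferase class stood lowest among the classes of these further genes, with 14 of 20 lower and a median of -0.21, against -0.027 for all genes. Epc2, an enhancer of Polycomb protein that sits in the NuA4 complex with Kat5, stood at 119 with OSU-HDAC42 and 394 with vehicle (-1.73, 3.31-fold lower), with -0.86 on its other probe set above the floor. Ing3, another NuA4 subunit, stood at 81.4 and 158 (-0.96). Epc1, named after its value was seen because it is the relative of Epc2, stood at 542 and 1051 (-0.96). Other NuA4 subunits on the list, also named after their values were seen, lay nearer to 0 or went the other way, with Ep400 at -0.36, Brd8 at -0.38, Actl6a at -0.25, Morf4l1 at -0.087, Ruvbl1 at 0.082, Kat5 at 0.27 and Ruvbl2 at 0.60. Sgf29, a histone-reading subunit of SAGA with Kat2a, stood at 70.8 and 139.8 (-0.98). Its other probe set, below the floor on both arrays, went the other way (0.20). Msl1, the scaffold of a complex with Kat8, differed by 0.75 on its brightest probe set but by -0.32 and -0.49 on others above the floor.

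Corepressor genes outside the member list were higher in 16 of 27 cases (median 0.11). Rcor2, a relative of Rcor1, stood at 54.6 and 31.1 (0.81), below the floor on the vehicle array. Arid4a, a Sin3 subunit, stood at 294 and 194 (0.60). Other CoREST genes, named after their values were seen, were lower or near 0. Hmg20b stood at 114 and 146 (-0.35). Zmym3 stood at 40.6 and 58.9 (-0.54), below the floor on the OSU-HDAC42 array. Zmym2 differed by -0.012 and Phf21a by 0.061, and Rcor3 was below the floor at 15.1 and 30.4. Bromodomain genes were higher in 6 of 13 cases (median -0.088). The 3 past 1.5-fold (23.1%, against 18.5% of all genes above the floor) were all lower. These were Zmynd8 at -0.93, Brd9, a subunit of the non-canonical form of SWI/SNF, at -0.67, and Trim24, a nuclear receptor cofactor, at -0.65. Remodelling genes were higher in 13 and lower in 17 of 31 cases (median -0.12). Dpf3, a SWI/SNF subunit known from heart and skeletal muscle, stood at 58.7 and 20.4 (1.53, 2.88-fold higher). Its vehicle value was below the floor, as was its other probe set on both arrays (0.55). Ruvbl2 stood at 249 and 165 (0.60) and Baz2a at 86.7 and 57.8 (0.59). Core SWI/SNF subunits, named after their values were seen, went both ways. Smarcc1 differed by -0.33, Smarcc2 by -0.39 (-0.047 on its other probe set above the floor) and Smarcd3 by -0.26. Smarcd1 and Smarcd2 differed by 0.056 and 0.24, and Smarce1 by 0.35, with 0.67 and 0.39 on its other probe sets. Further SWI/SNF subunits, also named after their values were seen, were lower on their brightest probe sets. These were Arid1b at -0.25, Arid2 at -0.27, Pbrm1 at -0.23, Ss18 at -0.23, Dpf2 at -0.16 and Actl6b at -0.32. A dimmer probe set of Arid1b above the floor went the other way (0.30). Polycomb and DNA methylation genes were higher in 14 of 20 cases (median 0.15). Cbx6, a chromobox protein of Polycomb repressive complex 1, stood at 2394 and 935 (1.36, 2.56-fold higher), with 0.60 on its other probe set, and Gadd45a, linked to DNA demethylation and to stress, at 192 and 112 (0.78). Both further genes of the NuRD class above the floor were slightly lower.

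**Figure D4:**
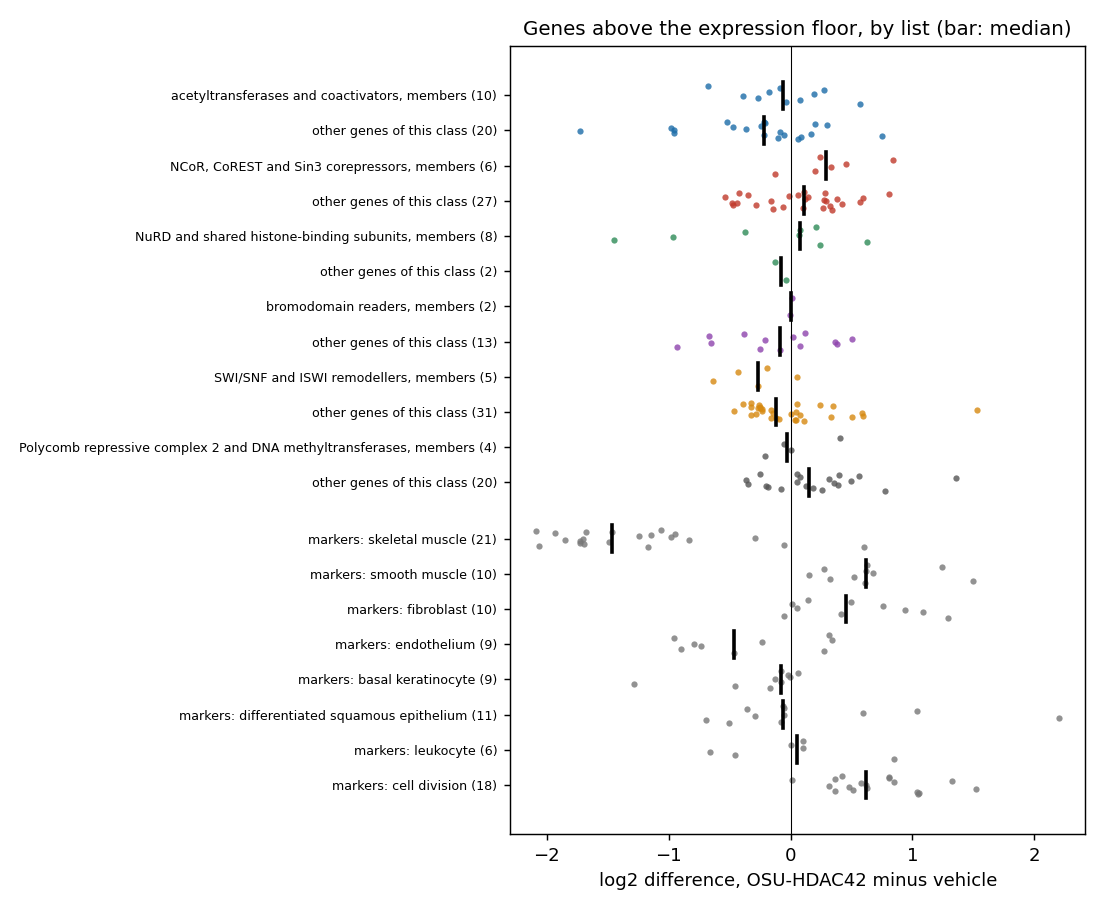
Log2 differences (OSU-HDAC42 minus vehicle) of genes above the floor, by class, for members, for other genes of the same class and for cell type and cell division markers, with the number of genes in brackets and the median as a bar. Chromatin classes have medians between -0.27 and 0.29, while skeletal muscle markers have a median of -1.46 and cell division markers of 0.62.

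Markers of skeletal muscle, smooth muscle and cell division differed more in their medians than any chromatin class did. Skeletal muscle markers were lower in 20 of 21 cases with a median of -1.46, and their summed intensity on the OSU-HDAC42 array was 0.50 of that on the vehicle array. Acta1 and Ttn stood at 1784 and 237 against 3719 and 906. Smooth muscle markers were higher in 10 of 10 cases (median 0.62), fibroblast markers in 9 of 10 (0.46) and cell division markers in 18 of 18 above the floor (0.62), the last with a summed intensity 1.68 times that on the vehicle array. Endothelial markers were lower in 6 of 9 cases (-0.47). Basal keratinocyte markers had a median of -0.081 and differentiated squamous markers of -0.059. Of 9 leukocyte markers, 6 were above the floor, with a median of 0.049, and Itgam and Cd4 were under 16 on both arrays. In tissue RNA, fewer cells of a type and less RNA per cell cannot be told apart. The part of these markers in the differences of Chd3, Mbd3, Rcor1, Epc2 and the other genes above was not tested.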

How the data were processed

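Total RNA from esophageal tissue was measured on 1 array per group. The deposited values are probe set intensities, 1 per probe set and array, on a linear scale, which was read from the values. Per the submitters' processing notes, the software GCOS and RMA was involved, and the authors' scaling between arrays is not given in the sources used here. Of 31042 non-control probe sets, 20826 had 1 gene symbol in the platform annotation, 436 several and 9780 none; only the first were used, with symbols updated by gene identifier to RefSeq (GRCr8), which held 14208 of the 14213 genes. Intensities under 16 (28.4% and 29.2% of probe sets) were raised to 16 before log2. Calculations used Python 3.11.15 with pandas 2.3.3 and were tested on simulated data. The simulation planted differences larger than that of any member, in bright genes with low noise. It checks the arithmetic and cannot show how reliable calls near 1.5-fold or in dim genes are. With 1 array per group no test was run, and the number of arrays limits the precision. Members, gene lists and the 1.5-fold limit were chosen with earlier results of these data known. All members were named; other chromatin genes were named when at least 1.5-fold apart, at most 3 in each direction and class, with exceptions stated. Alternatives varied scaling, raised values, probe set choice and floor.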

Additional observations from a re-analysis of the deposited data

How the results depend on the processing

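The median of the members stayed between 0.0017 and 0.074 under every scaling, raised value and probe set choice tried. Of 320 member values under these alternatives, 316 shifted less than 0.41, the spread within a gene, and 4 shifted more (those of Rest, Mta1 and Dnmt3a), while none past 1.5-fold changed sign. Part of the 316 could not shift by construction. Probe set choice cannot move the 18 members with 1 probe set. Leaving values unraised cannot move any member, since no brightest probe set was under 16 on either array. Class medians moved by over 0.1 with probe set choice only. Averaging probe sets above the floor gave 0.077 for acetyltransferases, -0.13 for SWI/SNF and ISWI remodellers and 1 member at least 1.5-fold higher (Chd4 at 0.55 fell short), and the median over probe sets gave 0.084 for remodellers. With the floor at the 75th percentile, by construction, 0 members were 1.5-fold higher, 2 lower and 0 were 2-fold lower, and of other chromatin genes 3 were higher and 4 lower. With a floor from arithmetic means (49.8), chosen after seeing the data, Kat2a fell below the floor, leaving 3 lower members. Centred arrays and quantile normalization brought Ncoa3 past 1.5-fold, for 3 higher members. Lower members also numbered 3 under both of these settings and with values under 32 raised to 32. Scaling moved the median of all genes by under 0.1. Otherwise the cause was not tested. No paired analysis was possible because only 1 array stood for each group. Below the floor, which is a median over probe sets and not a detection limit, were 5 of 40 members.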
